A study of Mus musculus with 18 samples.

Results

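Hippocampus of older control mice was compared with hippocampus of younger mice, which gives the age difference in animals that drank plain water without the drug of the study. The 12 mice were chosen by the age and treatment in their labels, out of 18 mice sequenced. The older mice were 20 months old and the younger mice 9 months old, all of the C57/B6 strain and bought from the aged rodent colony of the National Institute on Aging, with 6 mice per age, 3 males and 3 females. The other 6 mice were 20 months old and drank 3TC (lamivudine, a nucleoside analog that blocks reverse transcriptase). They enter here only as a further group of the model, where they add to the estimate of the spread. Each library came from the whole left hippocampus of 1 mouse, collected in the late morning after isoflurane anesthesia, and the cohorts had been through memory tests. The interval between the last test and collection is not given in the sources used here. The labels name the mice by treatment and age (C and O for older control, Y for younger), sex (M or F) and a number, as in CFO2 and YM1.

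The hippocampus holds densely packed excitatory neurons (granule cells of the dentate gyrus and pyramidal cells of the CA fields), scattered interneurons, and glia. In the aging rodent brain, microglia and astrocytes, the resident immune and support cells, are known to express more of their reactive genes, among them complement component C4. Neurons that fire switch on immediate-early genes within minutes, and the levels of these genes in resting tissue follow recent activity. Repeats such as LINE, SINE and LTR elements make up a large part of the genome, and their transcripts are counted by subfamily rather than by gene copy.

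Each mouse gave between 34584615 and 49126203 counts, of which 6006933 to 13038637 fell in genes and the rest in repeats. Levels are given as CPM, the counts of a feature per 1000000 gene and repeat counts after TMM scaling, and differences as log2 fold changes of older over younger mice. The repeat share of the counts was 77.3% ± 6.02 in older mice and 76.0% ± 6.94 in younger mice (SD, n = 6 each, two-sided exact permutation test, p = 0.732). It ran from 68.3% to 85.7% in older mice and from 63.4% to 83.6% in younger mice. The first principal component of the 12 mice held 66.8% of the variance and followed the log2 ratio of repeat to gene counts, with Pearson's r = 0.991 (permutation p = 1e-05, the smallest these permutations can give) and Spearman's rho = 0.937 (permutation p = 3e-05). Without the mice at its 2 ends, YM1 (lowest ratio) and CFO2 (highest ratio), r was 0.978, and it was 0.992 within older and 0.992 within younger mice. The component and the ratio are computed from the same counts, so the p-values do not show a relation between independent measures. The axis of this component crosses both ages, so results were also computed with the ratio as a term in the model and without YM1 and CFO2.

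All 12 excitatory neuron markers were detected, summing to 1058 to 2070 CPM in older and 1265 to 2224 CPM in younger mice. Among markers of neighbouring tissue, those of choroid plexus varied far more between mice of one age. The 16 choroid plexus markers, all of them detected, summed to 111 to 1072 CPM in older mice and 108 to 1021 CPM in younger mice. The 17 thalamus markers, also all detected, summed to 165 to 188 CPM in older mice and 157 to 346 CPM in younger mice, where YM1 was the highest. The part that this neighbouring tissue has in the results was not tested, beyond fits with each of these marker lists as a term.

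Of 16774 genes and repeats tested with edgeR's quasi-likelihood test, 2 passed an adjusted p of 0.05, which is 0.0119% of all. Both were genes of chromosome 19 that rose in older mice, insulin-degrading enzyme (IDE) and the fibroblast growth factor carrier FGFBP3. At an unadjusted p of 0.05, 39 features (0.233%) were higher and 28 (0.167%) were lower in older mice. With the repeat to gene ratio as a term, 4 genes passed (0.0238%), the added ones being BTAF1 and C4B, and the counts at an unadjusted p of 0.05 were 312 higher (1.86%) and 355 lower (2.12%). The median standard error of the log2 fold change was 0.15 over genes with a mean CPM of at least 1, and 0.09 once the ratio was a term.

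IDE is a zinc protease that breaks down insulin and amyloid beta. It lay between 28.3 and 33.5 CPM in older mice (median 31.6) and between 13.07 and 17.2 CPM in younger mice (median 15.3). Every older mouse stood above every younger mouse, with a log2 fold change of 1.06 ± 0.10 (SE, edgeR adjusted p = 1.6e-05), and the fold change was 1.08 in males and 1.05 in females. FGFBP3, a secreted protein that releases growth factors from the matrix, lay between 3.92 and 5.08 CPM in older mice (median 4.48) and between 2.22 and 2.69 CPM in younger mice (median 2.59). Its groups were likewise apart, with a log2 fold change of 0.82 ± 0.12 (SE, edgeR adjusted p = 0.00564). Without YM1 and CFO2, IDE alone passed (0.00596% of features), and the adjusted p of FGFBP3 from edgeR was 0.0501 with a log2 fold change of 0.78.

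BTAF1, an ATPase that strips the TATA-binding protein from promoters, is the neighbour of FGFBP3. It had 30.9 to 41.7 CPM in older mice (median 37.8) and 21.2 to 29.6 CPM in younger mice (median 24.3), with no overlap and a log2 fold change of 0.61 ± 0.13 (SE). Its edgeR adjusted p was 0.695, and 0.0293 with the repeat to gene ratio as a term. With that term and 1 of the 12 mice left out, BTAF1 passed in 1 of 12 fits (without YF3). In the GRCm38 annotation IDE lies at chr19:37268743-37337852 on the minus strand, FGFBP3 at chr19:36917550-36919615 (minus) and BTAF1 at chr19:36926079-37012752 (plus). The genes between and around them were closer to 0. CPEB3, which starts at -129 kb from the IDE start and lies between BTAF1 and IDE, had a log2 fold change of 0.07 ± 0.13 (SE), and the next genes past IDE, KIF11 and HHEX, had 0.23 ± 0.20 and 0.28 ± 0.22 (SE). None of the other 17 genes that start within 1 Mb of IDE passed the test, and PPP1R3C, on the far side of FGFBP3, had -0.24 ± 0.15 (SE). IDE and FGFBP3 are known to lie in a stretch that some C57BL/6 mice carry in an extra copy. Copy number was not measured here and cannot be told apart from age in these mice.

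**Figure D1:**
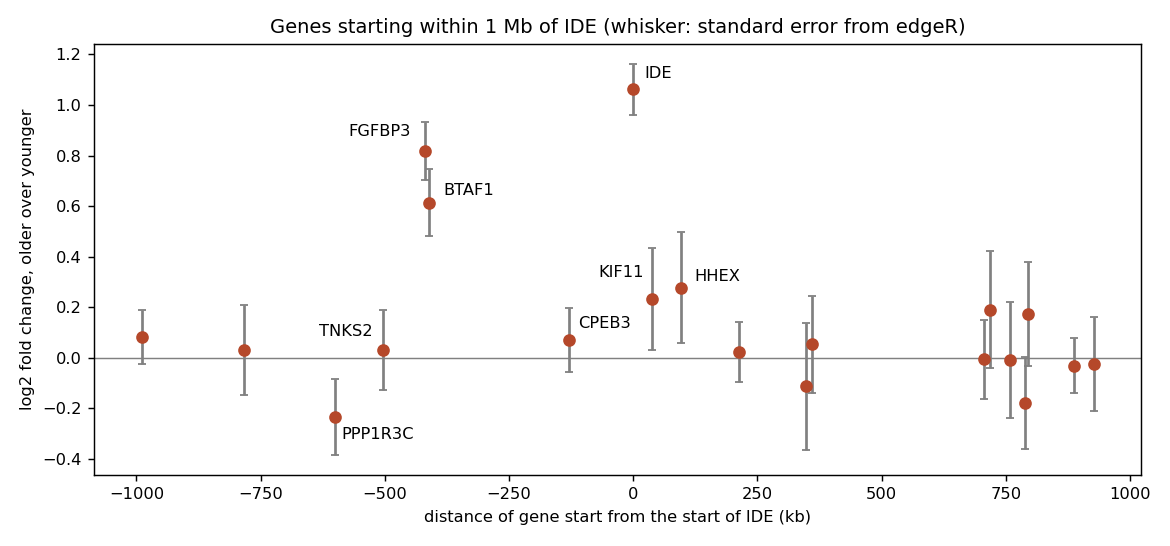
Log2 fold change of older over younger mice (vertical axis) for the 20 genes that start within 1 Mb of IDE, against the distance of each gene start from the start of IDE in kb. Points are estimates and whiskers standard errors from edgeR. IDE, FGFBP3 and BTAF1 stand at 1.06, 0.82 and 0.61, and CPEB3, between BTAF1 and IDE, at 0.07.

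C4B, a complement component made in the brain mainly by glia, had the largest log2 fold change above 0, at 1.07 ± 0.22 (SE). It ran from 29.6 to 60.3 CPM in older mice (median 42.9) and from 20.2 to 21.6 CPM in younger mice (median 21.1). Every older mouse stood above every younger one, and the older mice spread over a wide range where the younger mice were nearly equal. Its edgeR adjusted p was 0.480 with 18 mice in the model. It was 0.0164 with the 12 mice alone (3 genes called, 0.0179%), 0.0234 with the ratio term, 0.0128 with DESeq2 (3 genes called, 0.0179%) and 0.0220 without the drug-treated mouse DFO5. Its log2 fold change lay between 0.97 and 1.16 with any 1 mouse left out, and its call depended on the fit. With the ratio term and 1 of the 12 mice left out, C4B passed in 3 of 12 fits (without CMO3, CMO1 or YF3).

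Of 18 microglia markers tested, 17 were above 0, with a median log2 fold change of 0.16 against -0.008 for all genes. No marker passed the test, and 2 of 18 were higher at an unadjusted p under 0.05 (0.233% of all features). MPEG1, a pore-forming protein of macrophages, had 8.19 to 11.9 CPM in older mice (median 10.6) and 7.40 to 9.11 CPM in younger mice (median 8.18), so 5 of 6 older mice lay above the highest younger mouse. CTSS, a lysosomal protease, had 12.7 to 19.8 CPM in older mice (median 15.7) and 10.5 to 17.0 CPM in younger mice (median 12.2), where YM1 held the top value. Its log2 fold change was 0.37 ± 0.17 (SE), and it passed only with the 12 mice alone and the ratio as a term. For the microglial receptor GPR34 and the complement subunits C1QA and C1QB, the log2 fold changes were 0.37, 0.26 and 0.31, in the order named. In bulk tissue, more cells of a type and more RNA per cell cannot be told apart.

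The mean level of the microglia list, relative to the younger mean on the log2 scale, ran from -0.03 to 0.34 in older mice and from -0.11 to 0.11 in younger mice. An older mouse was above a younger one in 30 of the 36 possible pairs, and in 35 of 36 after the slope on the repeat to gene ratio was taken out. That slope was fitted with age in the model, which favours separation of the ages. The list median was 0.15 with the ratio term, 0.18 without YM1 and CFO2, and between 0.14 and 0.17 when any 1 mouse was left out. Genes of disease-associated microglia had a smaller median, 0.07, with 13 of 15 above 0. Of 8 border macrophage markers 4 were above 0 with a median of -0.007, but 1 of 8 with a median of -0.07 with the ratio term, and 0 of 8 with a median of -0.26 without YM1 and CFO2.

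Astrocyte genes did not share one direction. GFAP, the intermediate filament of reactive astrocytes, had 65.3 to 124 CPM in older mice (median 99.0) and 53.2 to 84.8 CPM in younger mice (median 70.6), and 4 older mice lay above the highest younger mouse. Its log2 fold change was 0.50 ± 0.22 (SE), which did not pass. VIM, another such filament, had 0.23 ± 0.15 (SE). Of 18 reactive astrocyte genes 13 were above 0, with a median of 0.15, but without YM1 and CFO2 the median was -0.008 with 8 above 0. Of 14 general astrocyte markers 6 were above 0, with a median of -0.04, which was 0.14 without those 2 mice. The complement list had 12 of 16 genes above 0 and a median of 0.07. When scaled by total counts its median was -0.007, against -0.07 for all genes.

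**Figure D2:**
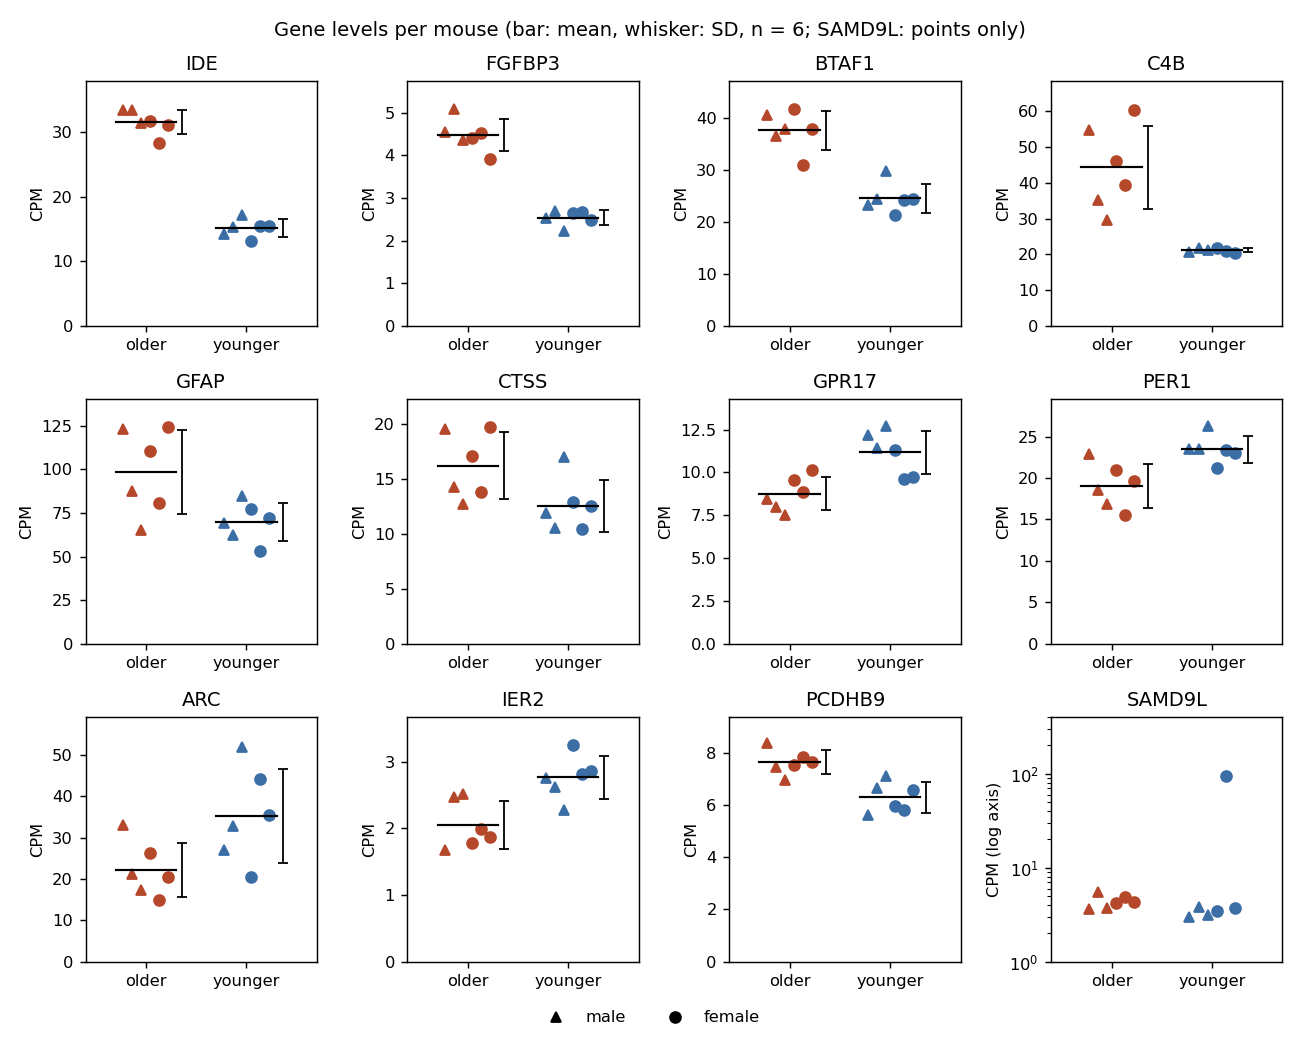
CPM of 12 genes in each of the 6 older mice (red, left) and 6 younger mice (blue, right), with triangles for males and circles for females. Bars are means and whiskers SD, except for SAMD9L, shown as points on a log axis. IDE, FGFBP3, BTAF1 and C4B show no overlap of the groups, GPR17, PER1, ARC and IER2 lie lower in older mice, and the younger mean of SAMD9L rests on YF3 at 95.5 CPM.

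Genes of mature oligodendrocytes and myelin were above 0 for 14 of 19 members, with a median of 0.13. TRF, the iron carrier transferrin, had 56.4 to 133 CPM in older mice (median 91.2) and 52.9 to 99.9 CPM in younger mice (median 70.2). APOD, a lipid carrier, had 15.9 to 26.7 CPM in older mice (median 19.4) and 12.98 to 18.1 CPM in younger mice (median 14.5), so that an older mouse was higher in 33 of 36 pairs. Both overlapped between ages and neither passed the test. The list was uneven between mice. Its mean level relative to the younger mean ran from -0.34 (CMO1) to 0.48 (CMO6) in older and from -0.24 to 0.27 in younger mice. Its median went as low as 0.02 without CMO6 and as high as 0.23 without CMO1.

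The precursor stage had 1 gene that stood out. GPR17, a receptor found on oligodendrocyte precursors that have begun to differentiate, had 7.53 to 10.1 CPM in older mice (median 8.66) and 9.62 to 12.7 CPM in younger mice (median 11.4). In older mice 5 of 6 lay below the lowest younger mouse, with a log2 fold change of -0.35 ± 0.09 (SE), which did not pass. The difference was -0.60 in males and -0.10 in females (unadjusted p of the interaction of age and sex from edgeR = 0.00477, which did not pass adjustment). The precursor list with GPR17 was split, with 7 of 15 above 0 and a median of -0.009.

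Immediate-early transcription factors, which neurons switch on when they fire, were below 0 for all 20 members, with a median log2 fold change of -0.20. None passed the test and 4 of 20 were lower at an unadjusted p under 0.05 (0.167% of all features), EGR1, EGR4, JUNB and IER2. EGR1, a zinc finger factor of synaptic plasticity, had 12.9 to 23.6 CPM in older mice (median 17.9) and 15.8 to 39.4 CPM in younger mice (median 24.4). IER2 had 1.68 to 2.51 CPM in older mice (median 1.93) and 2.28 to 3.25 CPM in younger mice (median 2.78). Here 4 of 6 older mice lay below the lowest younger mouse, and the log2 fold change was -0.43 ± 0.17 (SE). EGR4 and JUNB had -0.34 ± 0.14 and -0.38 ± 0.18 (SE), while FOS, the best known member, had -0.30 ± 0.20 (SE) with younger mice spread from 2.48 to 7.70 CPM.

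Effectors that follow this first wave were below 0 for 26 of 31 members, with a median of -0.10 and 5 members lower at an unadjusted p under 0.05 (0.167% of all features), ARC, NPTX2, DUSP1, PER1 and SIK1. ARC, a capsid-like protein of synapses, had 14.8 to 32.98 CPM in older mice (median 20.8) and 20.4 to 51.9 CPM in younger mice (median 34.1). Its log2 fold change was -0.67 ± 0.24 (SE), and -0.43 without YM1 and CFO2. NPTX2, which gathers AMPA receptors at synapses, had 5.46 to 6.53 CPM in older mice (median 5.75) and 5.36 to 8.95 CPM in younger mice (median 7.30). PER1, a clock gene that activity also induces, had 15.5 to 22.9 CPM in older mice (median 19.1) and 21.3 to 26.3 CPM in younger mice (median 23.4). An older mouse was higher than a younger one in 1 of 36 pairs for PER1 and in 5 of 36 for ARC. The log2 fold change of PER1 was -0.30 ± 0.10 (SE), which did not pass.

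The mean level of the transcription factor list relative to the younger mean ran from -0.34 to -0.09 in older mice and from -0.19 to 0.23 in younger mice. No older mouse reached the younger mean, and an older mouse was higher in 3 of 36 pairs. The list median lay between -0.25 and -0.14 with any 1 mouse left out, and was -0.21 both with the ratio term and without YM1 and CFO2. In that last fit 17 of 20 members were below 0. The effector median was -0.06 without those 2 mice, with 18 of 31 below 0.

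The core TGACG of the cyclic AMP response element was counted near the starts of these genes, where a gene with several starts gives several windows. Among RefSeq promoters (GRCm38.p6), 16 of the 20 transcription factors matched and gave 22 windows of 250 bases before a start. TGACG, on either strand, was in 16 of these windows (72.7%), in 14 of 39 windows of 24 effectors (35.9%), and in 5836 of all 32851 windows (17.8%). The full palindrome TGACGTCA, whose matches hold this core too, was in 1 (4.55%), 6 (15.4%) and 508 (1.55%) windows. A match is a run of letters and not a measured site of binding. The last 160 bases before the start of 4 genes that lay lower in older mice are shown 5′ to 3′ on the gene's strand, with cores in capitals. They are examples of where the core lies, picked from windows that hold it.
PER1: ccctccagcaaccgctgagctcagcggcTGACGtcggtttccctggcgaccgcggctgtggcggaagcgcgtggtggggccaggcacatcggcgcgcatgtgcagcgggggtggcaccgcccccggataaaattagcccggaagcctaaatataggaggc
JUNB: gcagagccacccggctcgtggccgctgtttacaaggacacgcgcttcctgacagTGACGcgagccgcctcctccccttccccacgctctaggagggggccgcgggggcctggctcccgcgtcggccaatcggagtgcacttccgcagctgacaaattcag
EGR4: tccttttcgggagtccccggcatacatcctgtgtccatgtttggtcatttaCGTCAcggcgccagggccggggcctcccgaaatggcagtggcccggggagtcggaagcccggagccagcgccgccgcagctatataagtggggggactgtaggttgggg
DUSP1: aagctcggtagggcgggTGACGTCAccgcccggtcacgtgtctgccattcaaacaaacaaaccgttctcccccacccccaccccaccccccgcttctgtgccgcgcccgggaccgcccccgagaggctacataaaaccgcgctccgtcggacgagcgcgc

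These windows are chr11:69099992-69100151 (plus strand) for PER1, chr8:84978749-84978908 (minus) for JUNB, chr6:85513590-85513749 (minus) for EGR4 and chr17:26508473-26508632 (minus) for DUSP1. The first capital lies 132 bases before the start in PER1, 106 in JUNB, 109 in EGR4 and 143 in DUSP1. EGR4 carries the core on the other strand, so it reads CGTCA, and DUSP1 carries the full palindrome. DUSP1, a phosphatase that switches off MAP kinases, had a log2 fold change of -0.28 ± 0.13 (SE).

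Clock genes as a list, PER1 included, differed little. Of 20 members 14 were below 0, with a median of -0.07, and that median was 0.02 without YM1 and CFO2. With the ratio term it was -0.04, and 4 of 20 members were lower at an unadjusted edgeR p under 0.05 (2.12% of all features with that term). PER2 had -0.16 ± 0.08 (SE) and NFIL3 -0.24 ± 0.12 (SE), with 4 of 6 older mice below the lowest younger mouse for NFIL3. Glucocorticoid response genes were below 0 for 14 of 19 members with a median of -0.11. The 2 members at an unadjusted p under 0.05, PER1 and DUSP1, also belong to the effector list (0.167% of all features were lower at that p). That median was -0.07 with the ratio term and -0.03 without YM1 and CFO2. The mean level of this list was higher in the older mouse in 10 of 36 pairs as measured. It was so in 0 of 36 after the slope on the repeat to gene ratio was taken out, where all 6 older mice lay below the lowest younger mouse. The gap was then small, from -0.043 in the highest older mouse (CFO1) to -0.037 in the lowest younger mouse (YM2). Fitting that slope with age in the model favours such a separation.

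Heat shock proteins and chaperones were below 0 for all 24 members, with a median of -0.15, and the size of this depended on a pair of mice. DNAJB1, which hands unfolded proteins to HSP70, had 7.75 to 10.5 CPM in older mice (median 9.18) and 9.70 to 15.3 CPM in younger mice (median 10.4), with the top value in YM1. The list level relative to the younger mean ran from -0.47 (CFO2) to 0.12 in older mice and from -0.32 to 0.41 (YM1) in younger mice. Without YM1 and CFO2 the list median was 0.01 and 14 of 24 members were above 0. With the ratio as a term it was -0.10, and all 24 were again below 0. Of the inducible HSP70 genes, HSPA1A had -0.59 in males and 0.07 in females (unadjusted edgeR p of the interaction = 0.00718, not past adjustment) and HSPA1B -0.56 in males and -0.11 in females.

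**Figure D3:**
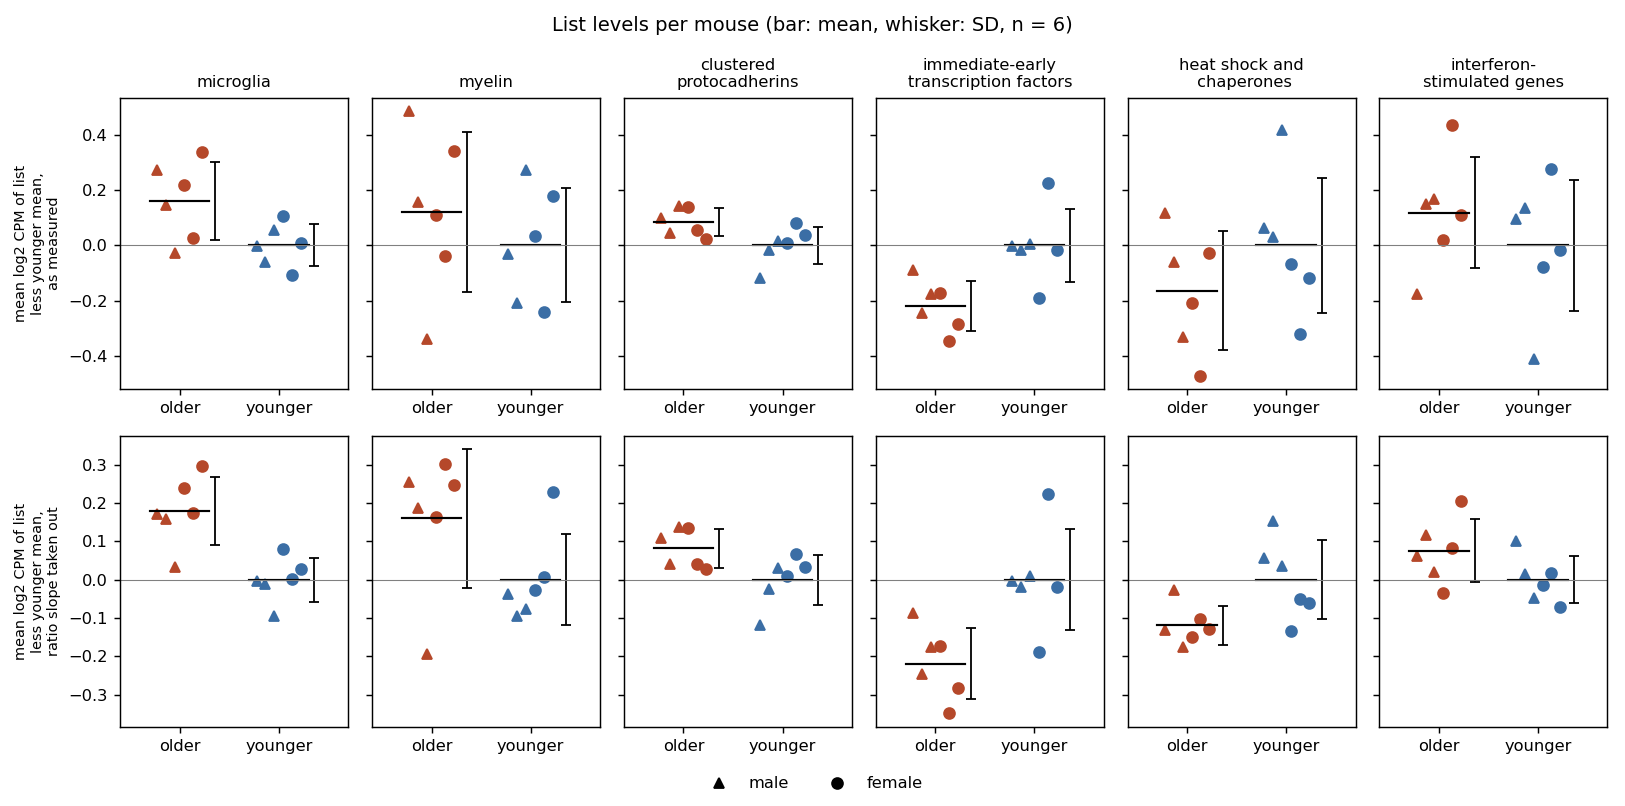
Mean log2 CPM of 6 gene lists in each mouse, less the mean of the younger mice, as measured (top) and after the slope on the repeat to gene ratio was taken out (bottom), with older mice left and younger mice right. Bars are means, whiskers SD, triangles males and circles females. Microglia genes lie higher and immediate-early factors lower in older mice in both rows of panels, while heat shock and interferon lists overlap widely as measured. The slope was fitted with age in the model, which favours separation of the ages in the bottom row.

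Clustered protocadherins are adhesion proteins whose random combinations give each neuron an identity. Of 51 tested, 34 were above 0 with a median of 0.03. When scaled by total counts the median was -0.02, against -0.07 for all genes. At an unadjusted edgeR p under 0.05 there were 10, all higher in older mice, 9 of the beta cluster and PCDHGA2 of the gamma cluster (0.233% of all features were higher at that p). PCDHB9 had 6.96 to 8.38 CPM in older mice (median 7.59) and 5.61 to 7.13 CPM in younger mice (median 6.28), and an older mouse was higher in 35 of 36 pairs. PCDHB2 had 3.49 to 5.59 CPM in older mice (median 4.43) and 2.36 to 4.36 CPM in younger mice (median 3.48). Each had 4 or 5 older mice above the highest younger mouse, as did PCDHB14 and PCDHB16, with log2 fold changes of 0.28, 0.43, 0.27 and 0.24 in the order named. The list median was 0.06 with the ratio term, with 12 members higher at an unadjusted p under 0.05 (1.86% of all features with that term), and 0.10 without YM1 and CFO2. Members of the cluster are near copies, so the sharing of reads between them is uncertain.

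Interferon-stimulated genes were above 0 for 24 of 30 members with a median of 0.12, and none had an unadjusted p under 0.05. The median was 0.08 with the ratio term and -0.02, with 14 above 0, without YM1 and CFO2, and the list level was highest in CFO2 and lowest in YM1. XAF1, an interferon-induced factor of cell death, had 2.67 to 4.12 CPM in older mice (median 3.50) and 2.13 to 3.42 CPM in younger mice (median 2.97). Of 21 innate sensors 14 were above 0 with a median of 0.02 (-0.03 with the ratio term). With total counts it was -0.04, against -0.07 for all genes. The 1 sensor at an unadjusted p under 0.05 was TLR3 (0.233% of all features were higher at that p). TLR3, the endosomal sensor of double-stranded RNA, had 5.49 to 5.99 CPM in older mice (median 5.75) and 4.43 to 5.54 CPM in younger mice (median 5.02), with an older mouse higher in 35 of 36 pairs. IFNGR1, a chain of the interferon gamma receptor, had a log2 fold change of 0.25 ± 0.09 (SE), against 0.19 ± 0.08 (SE) for TLR3. HELLS, a chromatin remodeler needed for DNA methylation at repeats, had 3.20 to 4.97 CPM in older mice (median 4.44) and 2.64 to 4.04 CPM in younger mice (median 3.37). Of 28 repeat silencing and restriction genes only HELLS had an unadjusted p under 0.05, against 0.233% of all features higher at that p.

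No neuronal marker list had a member past the test. Median log2 fold changes were -0.06 for excitatory neurons (1 of 12 above 0), 0.04 for dentate granule neurons (10 of 17), 0.0006 for interneurons (11 of 21) and -0.04 for synaptic vesicle genes (7 of 33). When scaled by total counts the dentate median was -0.05, against -0.07 for all genes. The dentate median was 0.08 with the ratio term and 0.17, with 14 of 17 above 0, without YM1 and CFO2. Without these 2 mice the excitatory neuron median was 0.11 and the synaptic vesicle median 0.11, so the direction of both depended on them. Ribosomal protein genes were above 0 for 31 of 94 members with 18 mice, 49 of 94 with the ratio term and 85 of 94 without the 2 mice. Endothelial, pericyte and fibroblast markers had medians of -0.06, -0.07 and -0.07. Without YM1 and CFO2 these were -0.05, -0.20 (1 of 13 pericyte markers above 0) and -0.15, and with the ratio term -0.06, -0.11 and -0.09. Thalamus markers had -0.27, which was -0.01 without YM1 alone. Choroid plexus markers had 0.09 over both sexes, with -0.29 in males and 0.75 in females. Their median was -0.10 without CFO1 and 0.31 without YM8. Older females ran from -0.95 (CFO3) to 1.08 (CFO1) in list level relative to the younger mean.

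**Figure D4:**
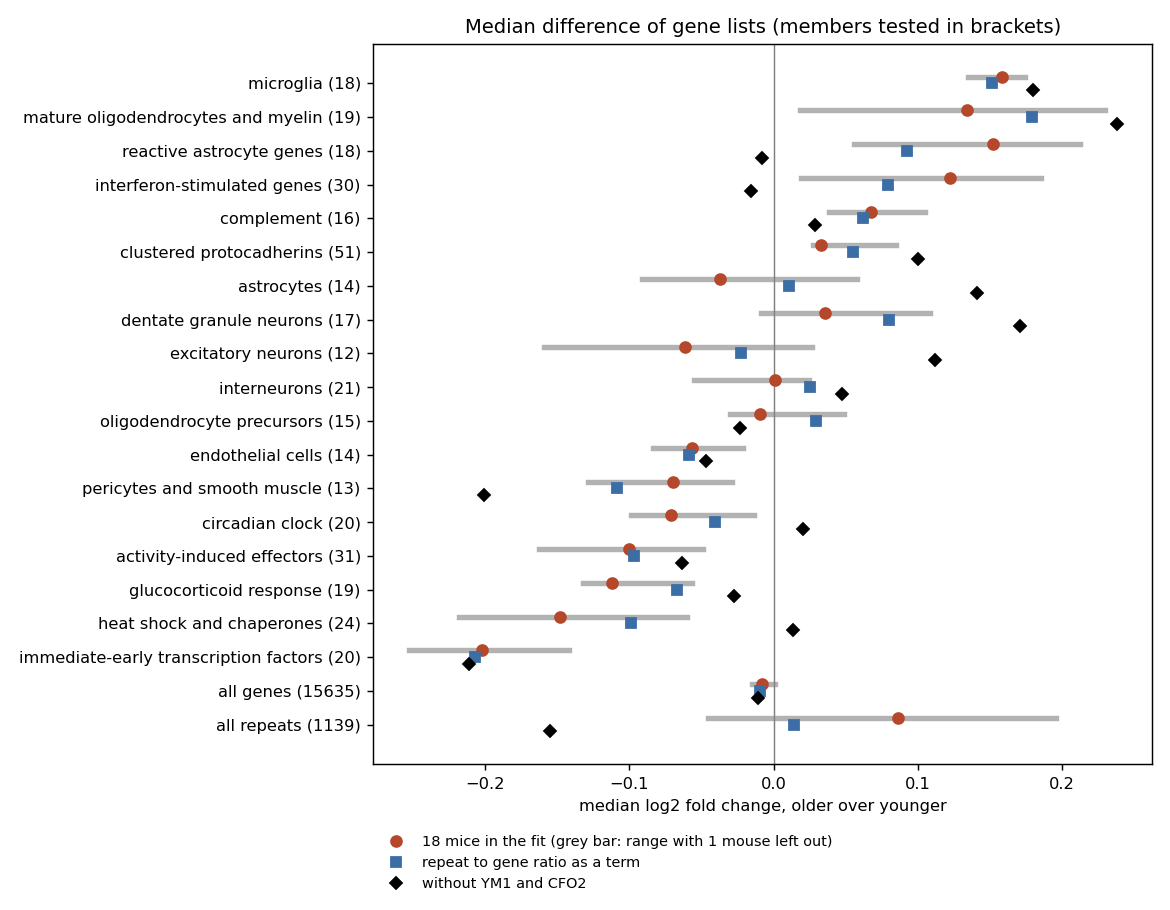
Median log2 fold change of older over younger mice for 18 gene lists, all genes and all repeats, with the number of members tested in brackets. Circles show 18 mice in the model (grey bars, range with 1 mouse left out), squares the repeat to gene ratio as a term, and diamonds the fit without YM1 and CFO2. In these 3 fits microglia and myelin lie above 0 and immediate-early transcription factors below 0, while the median of all repeats is 0.09 with all mice and -0.16 without those 2.

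Most genes differed little. Over the 15176 genes with a mean CPM of at least 1, the median absolute log2 fold change was 0.06 and the 95th percentile 0.19. Only 5 genes exceeded 0.5 above 0 and 6 below 0. Past 1 there were IDE and C4B above, and SAMD9L below at -2.10 ± 0.73 (SE). SAMD9L, an antiviral factor, had 95.5 CPM in YF3, while the other younger mice had 3.00 to 3.86 CPM and the older mice 3.62 to 5.49 CPM. Without YF3 its log2 fold change was 0.34. MID1, a ubiquitin ligase, had 16.7 to 32.5 CPM in older mice (median 21.2) and 20.3 to 67.5 CPM in younger mice (median 35.0). PTGDS, a prostaglandin synthase rich in meninges and choroid plexus, had 10.1 to 30.2 CPM in older mice (median 22.6) and 22.5 to 52.9 CPM in younger mice (median 35.6), with a log2 fold change of -0.75 ± 0.36 (SE).

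In 6 features (0.0358%) all older mice lay above all younger mice, and in 3 (0.0179%) all lay below. Those above were IDE, FGFBP3, BTAF1, C4B, CWC22 and CEP295, and those below RIMS4, SLC9A3R2 and CAPN10. CWC22, a splicing factor, had 10.6 to 12.9 CPM in older mice and 9.46 to 10.6 CPM in younger mice, and CEP295, a centriole protein, had 14.4 to 15.8 CPM in older mice and 12.6 to 14.4 CPM in younger mice, so both groups nearly touched. RIMS4, a small protein of the presynaptic active zone family, had 3.78 to 5.03 CPM in older mice and 5.09 to 6.12 CPM in younger mice. SLC9A3R2, a scaffold protein, and CAPN10, a calpain protease, were below by -0.21 and -0.18 on the log2 scale. With the slope on the repeat to gene ratio taken out, 33 features lay above (0.197%) and 24 below (0.143%), IER2, CTSS, MPEG1, GPR17, PCDHB9 and KCTD5 among them. Fitting that slope with age in the model favours separation of the ages. Counted over the 36 pairs, 20 genes were higher in the older mouse in 34 or more (0.132%) and 18 in 2 or fewer (0.119%).

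No repeat passed the test in either direction (0 of 1139 with edgeR and 0 with DESeq2). At an unadjusted edgeR p under 0.05 there were 0 repeats, or 12 with the ratio as a term. With that term 667 of all 16774 features had such a p. As a whole, 1093 of 1139 repeats were above 0 with a median of 0.09. The medians were 0.12 for LINE elements (156 of 159 above 0), 0.07 for SINE (36 of 36), 0.08 for LTR (649 of 677) and 0.09 for DNA transposons (209 of 218). Young L1Md subfamilies, which can still move in mice, had 0.07 (0.18 in males and -0.04 in females). IAP elements, a family of mouse endogenous retroviruses, had 0.05, or -0.03 with the ratio term and -0.01 with total counts. With total counts the medians were 0.02 for all repeats and -0.07 for all genes. All repeats of a mouse share its repeat to gene ratio, which is made from their own summed counts. A fit with that ratio as a term therefore cannot tell whether repeats as a whole differ by age. With the ratio as a term 722 of 1139 were above 0 with a median of 0.01, and the L1 family had 0.06 with 128 of 133 above 0, against 0.13 with 131 of 133 without the term. Without YM1 and CFO2 the L1 median was -0.12, with 1 of 133 above 0. Without CFO2 the median of all repeats was -0.05, and without YM1 and CFO2 it was -0.16, with 22 of 1139 above 0. The older mouse was the higher one in 9 to 28 of 36 pairs for single repeats, with a median of 20.

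**Figure D5:**
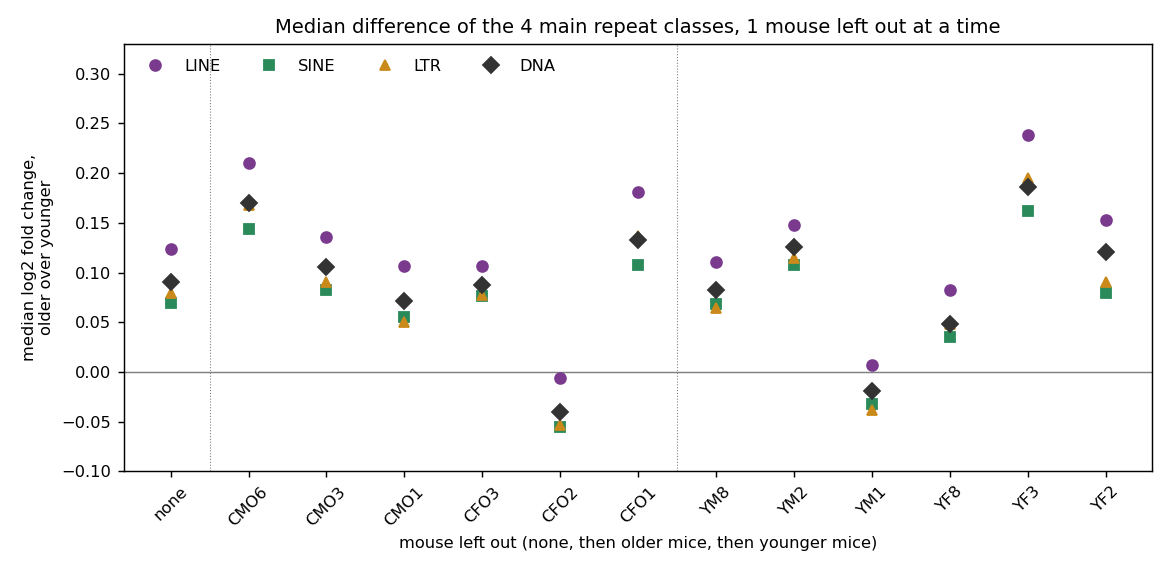
Median log2 fold change of older over younger mice for LINE, SINE, LTR and DNA repeats with no mouse left out (left) and with each older and then each younger mouse left out in turn. The 4 classes move together, lying between 0.16 and 0.24 without YF3 and between -0.055 and -0.00566 without CFO2.

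Past 0.5 on the log2 scale there were 3 repeats above 0 and 2 below, of which IAPA_MM-int and MT2B2 had over 1 CPM in every mouse. IAPA_MM-int, the internal part of an IAP subfamily, had 162.1 CPM in CMO1 and 26.3 to 51.7 CPM in the other older mice, against 28.3 to 47.9 CPM in younger mice. Its log2 fold change was 0.58 ± 0.34 (SE), and -0.07 without CMO1. MT2B2, a long terminal repeat, had 475 to 2241 CPM in older mice (median 888) and 298 to 1324 CPM in younger mice (median 669), with 1.60 in males and -0.40 in females. The gene LARS2, a mitochondrial leucyl-tRNA synthetase, showed the same split, with 2.74 in males and -1.23 in females and 157 to 2635 CPM in older against 102 to 1541 CPM in younger mice.

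No age difference differed by sex past the test (0% of features), with 32 features at an unadjusted p under 0.05 in edgeR's interaction test and 34 with the 12 mice alone. Of the genes and repeats given above, GPR17, HSPA1A, MT2B2 and LARS2 had the smallest interaction p, at 0.00477, 0.00718, 0.00763 and 0.00792 from edgeR, unadjusted. For IDE, BTAF1 and C4B the differences in males and females had the same direction, at 1.08 and 1.05, 0.57 and 0.66, and 0.91 and 1.22, the first of each pair in males.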

How the data were processed

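Hippocampal RNA of 18 mice was sequenced, and the 12 mice without 3TC are described. The authors deposited raw read counts in whole numbers in 1 table, which held 15644 genes and 1146 repeats for each mouse. STAR, DESeq2 and the genome build mm10 are credited to the submitters' processing notes, and the methods name fastp and repeat counting with RepEnrich2 and TEtranscripts, with versions not given in the sources used here. The methods describe total RNA depleted of ribosomal RNA and the labels describe polyA RNA, and this was not settled, so reads of repeats within longer transcripts cannot be told apart from repeat transcripts. There were 0 unused sample columns and no columns of the authors' comparisons. Among older mice and among younger mice, no 2 libraries were near copies (chi-square over its degrees of freedom was at least 14). Pairs across the ages and the 3TC libraries were not compared in this way. The p-values measure the spread between mice.

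Features with a mean count above 10 were kept (16774, of them 15635 genes and 1139 repeats), and 2 repeats that share a name with a gene were renamed. All 18 mice were fitted in edgeR 4.0.16 (R 4.3.3, limma 3.58.1) with TMM scaling, group means and the quasi-likelihood test, with Benjamini-Hochberg adjustment over all features at 0.05. CPM used the TMM-scaled totals, and list levels used a prior count of 2. The code was tested on simulated data. Gene lists (49) were described by counts and medians without a test. The members and lists were chosen with earlier results of these data known. Genes to name were those past the test in any of 3 fits, the 10 smallest p in each direction, the non-overlapping features, the leading and first members of each list, genes within 1 Mb of IDE, the smallest interaction p and genes that the study names. Of these, the ones that bear on the comparison were described, and that choice was made with their values known.

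Alternatives were terms for the repeat to gene ratio, sex or marker lists, a replicate block, other scaling and filters, DESeq2 1.42.0, the 12 mice alone, each sex alone and each mouse left out. The ratio term with the 12 mice or with 1 mouse left out, the fit without YM1 and CFO2, and ranges with the ratio slope taken out were chosen after seeing the data. Gene positions came from GENCODE on GRCm38, which is mm10, and promoters from RefSeq. Figures were drawn with Python 3.11.15 and matplotlib 3.10.9. 1 gene that the naming rule gives is not reported here.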

Additional observations from a re-analysis of the deposited data

Results flagged for a closer look

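A single mouse lay far from the other 5 of its age (a gap to the nearest above Dixon's limit) in 15 of 224 groups of values looked at (6.70%). For single features these were CFO2 among older mice with 8.34 CPM of KIF11, CMO1 among older mice with 162.1 CPM of IAPA_MM-int, YM1 among younger mice with 17.0 CPM of CTSS, 15.3 CPM of DNAJB1 and 9.95 CPM of BCAP29, and YF3 among younger mice with 95.5 CPM of SAMD9L. For the mean log2 CPM of a list, less the younger mean, CFO2 had 0.16 for adult neurogenesis and proliferation and -0.22 for neocortical layers. YM1 had -0.82 for T and B cell genes, 0.23 for dentate granule neurons, -0.32 for cytokines, chemokines and adhesion, 0.18 for clock genes, -0.17 for p53 targets and -0.67 for tissue-restricted genes of other organs. YM2 had -0.16 for CA2 neurons. Of the 15 values, 9 belonged to YM1, which had the lowest repeat share of the 12 mice, and 3 to CFO2, which had the highest.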

How the results depend on the processing

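The number of genes called was 4 with the repeat to gene ratio as a term, 4 with the tissue-restricted list as a term, 5 with the 12 mice alone and the ratio term, 1 without YM1 and CFO2, and 0 with total counts, with males alone or with females alone. It was 2 to 3 with 1 mouse left out, 3 only without DFO5. With the ratio term and 1 of the 12 mice left out it was 2 to 4, with BTAF1 in 1 and C4B in 3 of 12 fits. Features without overlap numbered 57 with the ratio slope taken out. Total counts put the median of all genes at -0.07, against -0.01. The label numbers do not pair the mice (correlations of 3 same-numbered pairs -0.549 to 0.143), and the fit with this replicate block called 0 genes, with 0.97 for IDE and 0.86 for FGFBP3. CMO6, CMO3, CFO1 and YM8 have a sex and label number that no other of the 18 mice has. The block takes up their values, so that fit compares the ages without them, and it still holds YM1 and CFO2. The replicate block also reversed CPEB3 (-0.074), VIM (-0.026), TRF (-0.038) and LARS2 (-0.86). It turned the direction of the list medians of myelin (-0.20) and disease-associated microglia (-0.05), and of choroid plexus, border macrophages, pericytes, fibroblasts and interneurons, and put immediate-early factors at -0.37. The difference in repeat share lay between -1.22 and 3.11 percentage points with 1 mouse left out, with -0.378 without CFO2. KIF11 was -0.049 without YM1 and CFO2. In females alone HSPA1A was 0.075, LARS2 -1.20, MT2B2 -0.39 and IAPA_MM-int -0.051. SAMD9L was 0.36 in males alone, and with 1 mouse left out lay between -2.32 and 0.34 (0.34 without YF3), and IAPA_MM-int between -0.066 and 0.73 (-0.066 without CMO1). The causes were not tested. Over all settings of the named features, 1875 values kept direction and side of the threshold, 10 newly passed, 9 no longer passed and 12 reversed. The median standard error of 0.15 over genes limits which differences 6 mice an age can resolve.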
